A study of Gallus gallus with 6 samples.

Results

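RAG2 encodes a subunit of the recombinase that cuts antigen receptor genes, and its transcript was measured here in breeder hens kept in heat, in mucosa of the jejunum, the middle stretch of the small intestine. The rule took the rows whose symbol is RAG1 or RAG2. It found 1 of these 2 genes, RAG2, among 15656 named genes, and RAG1 was not analysed here. RAG2 was chosen by its FPKM difference between the groups in an earlier fit to the same libraries, so its own levels are given below as a description and carry no test.

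The recombinase is made of RAG1, which holds the catalytic site, and RAG2, which binds RAG1 and reads the trimethylated lysine of histone H3 that marks active promoters. Together they cut at recombination signal sequences beside V, D and J segments, and the general end-joining repair proteins close the break. The activity is normally limited to developing lymphocytes of the thymus, bone marrow and, in birds, the embryonic B cell lineage. Chicken B cells then diversify their immunoglobulin genes in the bursa of Fabricius by gene conversion from pseudogenes, and bursal B cells are known for expressing RAG2 without RAG1.

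The heat-adapted group held Leuang Hang Kao breeder hens and the heat-sensitive group SUT breeder hens. All hens were 28 weeks old and had spent 6 h at 36 °C before sampling. Each group had 3 libraries, and each library was made from the pooled RNA of 4 hens, so spread between libraries is spread between pools. Breed and group are the same split and cannot be told apart. All libraries came from heated hens, so no value below is a response to heat within a breed.

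The fit across genes took in 11587 genes, those whose FPKM (fragments scaled for gene length and library size) averaged 1 or more over the libraries. Of these, 11 (0.0949%) passed the test between the groups (adjusted p below 0.05, limma). A short list of which none passed is therefore not set apart from all genes. The deposited read counts of a library came to 12729667 to 13070796 in the heat-adapted and 10829957 to 12212660 in the heat-sensitive group. Summed over genes, FPKM was 779730 to 885074 in the heat-adapted and 893271 to 898136 in the heat-sensitive libraries. Neither sum overlapped between the groups, so depth and total FPKM cannot be told apart from group. Absorptive enterocyte genes were above 0 in every library. The summed FPKM of 14 such genes was 41313 to 56367 in the heat-adapted and 26877 to 49727 in the heat-sensitive libraries. In pooled mucosa, fewer cells of a type and less RNA per cell cannot be told apart.

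RAG2 was close to absent in the heat-adapted libraries and at a modest level in every heat-sensitive one. Its FPKM was 0.04, 0.09 and 0.09 in heat-adapted replicates 1, 2 and 3, and 6.32, 4.58 and 3.91 in heat-sensitive replicates 1, 2 and 3. All 3 heat-sensitive values lay far above all 3 heat-adapted ones, and the groups did not overlap, which was also so for 21.9% of the genes in the fit. The means were 0.0733 ± 0.0289 (SD, n = 3) and 4.94 ± 1.24 (SD, n = 3), a ratio of 67.3 between the group means. The closest pair of libraries, at 3.91 and 0.09, differed 43.4-fold and the farthest pair, at 6.32 and 0.04, differed 158-fold. The deposited FPKM values are rounded to 2 decimals, and if each heat-adapted value were off by 0.005, the most that rounding allows, the ratio of means would lie between 63.0 and 72.2.

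Set among all named genes, the heat-sensitive mean of RAG2 was above that of 44.1% of genes, and its heat-adapted mean was above that of 9.51%. RAG2 was thus a transcript of about middling level in one group and near the bottom in the other. On the scale of log2(FPKM + 1) the difference, heat-adapted minus heat-sensitive, was -2.45. The added 1 shrinks changes of low genes on this scale, and with 0.1 in its place the difference was -4.85. Of the 11587 genes in the fit, 7 (0.0604%) had a difference at or below that of RAG2, itself among them. RAG2 passed the minimum of 1 on the mean only through its heat-sensitive values.

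RAG2 was chosen by its difference and its groups did not overlap. Leaving out a library could therefore not change the sign, and the range is a description only. Leaving out each library in turn gave log2 differences between -2.57 and -2.29. Within the heat-sensitive group the highest RAG2 value was 1.62 times the lowest, a coefficient of variation of 25.2%. Of 14 B cell markers, 11 had a wider ratio than RAG2 among the same libraries. The choice of RAG2 by its group difference favours even values within a group, so this too is only a description.

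**Figure D1:**
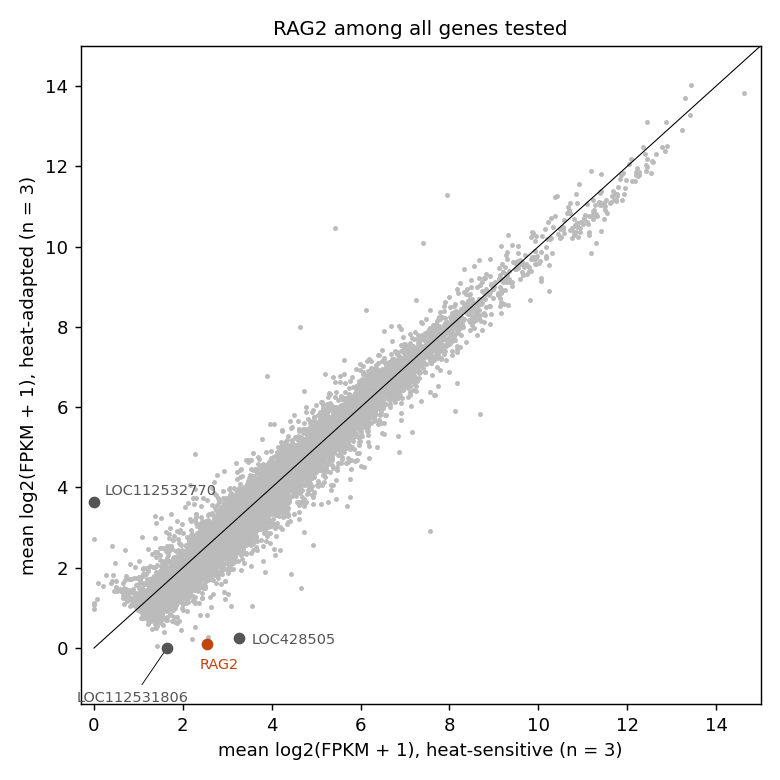
Mean log2(FPKM + 1) in the heat-sensitive (horizontal axis) and heat-adapted libraries (vertical axis, n = 3 each) for the 11587 genes in the fit; each grey point is a gene, the line marks equal levels and 4 genes are named. RAG2 lies at the foot of the plot, with a heat-adapted mean FPKM of 0.0733 against 4.94.

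By FPKM, few genes went from near absence in 1 group to expression in every library of the other. The place of RAG2 among them follows from its choice by this difference. Across the 15656 named genes, 3 were at an FPKM of at least 1 in every heat-sensitive library and at least 10 times every heat-adapted value, namely RAG2, LOC428505 and LOC112531806. LOC428505 was at 0, 0.15 and 0.45 in the heat-adapted and at 13.26, 8.23 and 5.87 in the heat-sensitive libraries. For LOC112531806 the heat-sensitive values were 1.84, 3.29 and 1.5, and each heat-adapted library listed it at 0. Both have only locus names. In the reverse direction 1 gene met the same bounds, LOC112532770, at 20.98, 5.18 and 13.09 in the heat-adapted and 0, 0 and 0.01 in the heat-sensitive libraries.

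The deposited table also holds read counts, but they do not stand in the row order of the gene symbols. Across 15656 genes, the FPKM and the read count that share a row, each averaged over the libraries, had a Spearman's rho of -0.0049. The read count of RAG2 was therefore not used, and the number of reads behind its FPKM values is unknown. The count rows could still be searched without names. With at least 5 reads in every heat-sensitive library, 0 of 15676 rows were at least 10 times every heat-adapted value, and 6 were with at least 1 read. With an FPKM of at least 1 in place of the reads, 3 genes met that fold, RAG2 among them. No count row with at least 5 reads thus shows the difference that RAG2, LOC428505 and LOC112531806 show by FPKM. The differences of these 3 genes therefore rest on the FPKM columns alone, and the count rows do not bear them out. Why the counts and the FPKM differ was not tested.

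None of the tested genes beside RAG2 passed the test between the groups, which 0.0949% of all genes in the fit did. In the reference gene table, which is of assembly GRCg7b and so of another build than the authors used, RAG1 and RAG2 are neighbours. Of the protein-coding genes measured here, TRAF6, PRR5L, COMMD9 and FJX1 come next on the RAG1 side. On the far side of RAG2 these are C5H11orf74, LRRC4C, API5 and TTC17. Genes with no measured values were passed over, so not all of these need be directly adjacent. TRAF6, a ubiquitin ligase that carries signals from Toll-like and interleukin-1 receptors, was at 14.89, 16.34 and 14.52 in the heat-adapted and 14.96, 15.92 and 12.84 in the heat-sensitive libraries. Its groups overlapped and its log2 difference was 0.07 (SE 0.14, adjusted p = 0.839, limma with Benjamini-Hochberg adjustment over all genes tested).

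C5H11orf74, known in mammals as a factor of transport inside cilia, lies within the annotated span of RAG2 in that table. The sources used here do not say how reads of overlapping genes were assigned or whether strand was used. C5H11orf74 was at 1.27, 1.78 and 4.5 in the heat-adapted and 2.37, 3.13 and 4.89 in the heat-sensitive libraries. Its groups overlapped, with the highest value of both groups in replicate 3. In that replicate RAG2 was lowest among the heat-sensitive libraries, but at its highest heat-adapted value, 0.09, which replicate 2 shared. The part of shared reads in the RAG2 difference was not tested. C5H11orf74 had a log2 difference of -0.41 (SE 0.34, adjusted p = 0.55, limma).

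Of the other neighbours, COMMD9, of the COMMD family of endosomal sorting proteins, had groups that did not overlap, 1 of the 6 neighbours in the fit, where 21.9% of all genes in the fit did not overlap. It was at 35.7, 35.88 and 38.16 in the heat-adapted and 44.75, 42.1 and 43.58 in the heat-sensitive libraries (log2 difference -0.24, SE 0.12, adjusted p = 0.318, limma). PRR5L, a partner of the kinase complex mTORC2, differed by 0.17, the apoptosis inhibitor API5 by -0.09 and TTC17 by -0.10, each on the log2 scale. FJX1 and LRRC4C had a mean FPKM under 1, with highest values of 0.41 and 0.25, and were not tested. None of the 6 neighbours in the fit passed an adjusted p of 0.05 by limma, which 11 genes (0.0949%) did. An unadjusted p below 0.05 was found for 0 of the 6, against 18% of all genes tested. With 6 genes, neither count sets the neighbours apart from all genes.

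**Figure D2:**
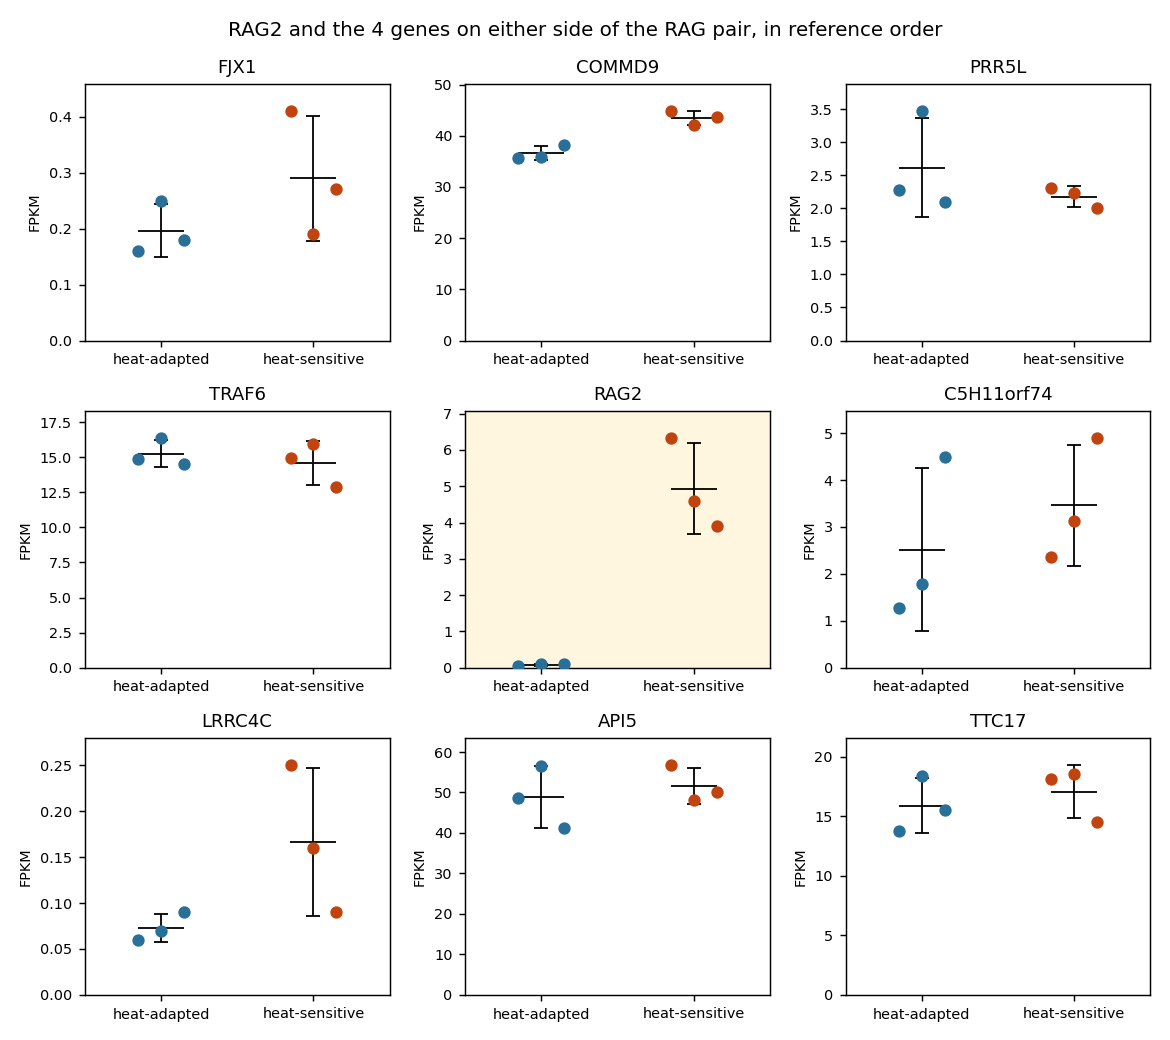
FPKM of RAG2 (shaded) and of the 4 measured genes on either side of the RAG pair, in reference order from top left; points are libraries in the order of their replicate numbers, horizontal lines are means and bars are SD (n = 3). RAG2 was at 0.09 or less in the heat-adapted libraries, while TRAF6 lay between 12.84 and 16.34 in all 6.

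The partners of the recombinase were all expressed in both groups. HMGB1 and HMGB2, the DNA-bending proteins that help the recombinase bind and pair its signals, were abundant. HMGB1 was at 147, 186 and 193 in the heat-adapted and 232, 214 and 191 in the heat-sensitive libraries, and HMGB2 at 55.25, 70.26 and 104.67 against 122.22, 133.07 and 110.96. HMGB1 overlapped between the groups and HMGB2 did not. KPNA2, an importin that carries cargo such as RAG1 into the nucleus, averaged 24.1 ± 5.58 (SD, n = 3) in the heat-adapted group against 51.8 ± 4.63 (SD, n = 3) in the other (log2 difference -1.09, SE 0.18, adjusted p = 0.0589, limma).

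In mammals, CDK2 marks RAG2 for destruction at entry to S phase and SKP2 is the ligase subunit that recognises the marked protein. CDK2 was at 12.3 ± 2.05 against 17.9 ± 1.84, and SKP2 at 9.41 ± 0.652 against 12.2 ± 0.262 (SD, n = 3 each), with adjusted p = 0.174 and adjusted p = 0.23 by limma. DCAF1, a ubiquitin ligase adaptor that binds RAG1, had a log2 difference of 0.01. Of these 6 partner genes 5 lay lower in the heat-adapted group, where 58.3% of all genes tested were, and their median log2 difference was -0.43 against -0.06 for all genes. None passed, where 0.0949% of all genes did. Of the 6, 4 had an unadjusted p below 0.05 by limma, all lower, as had 10.9% of all genes tested. The shift was not particular to these partners, as the 19 cycling cell markers given below had a median log2 difference of -0.93. Without heat-adapted replicate 3, KPNA2 was among the genes that passed.

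Genes of the repair proteins that close RAG breaks were, apart from DNTT, expressed in both groups. None passed the test, which 0.0949% of all genes did. Of 20 end-joining genes listed, 19 were measured and 18 tested, of which 10 lay lower in the heat-adapted group and 8 higher. Their median log2 difference was -0.06, against -0.06 for all genes. With the scaling that median changed sign: it was 0.0457 after rescaling to TPM, 0.0105 with median-of-ratios scaling and 0.0240 with quantile normalization. The median of all genes moved alongside it, to 0.0505, 0.0143 and -0.00126 under the same 3 scalings, so the list lay close to all genes under each. XRCC6, the Ku70 subunit that first binds broken ends, was at 13.7 ± 0.75 and 13.7 ± 0.591 (SD, n = 3 each). PRKDC, the DNA-dependent kinase, was at 3.13 ± 0.4 and 3.36 ± 0.965, and LIG4, the ligase, at 5.03 ± 0.728 and 5.52 ± 0.894. DCLRE1C, the Artemis nuclease that opens hairpin coding ends, was at 3.05, 4.28 and 3.65 in the heat-adapted and 3.69, 3.6 and 3.38 in the heat-sensitive libraries.

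By limma 0 of the 18 passed, where 0.0949% of all genes did, and 2 had an unadjusted p below 0.05, both lower. That is about the share of all genes tested, 10.9%, that were lower at that p. The 2 are named by their p alone and were PAXX, a Ku-binding scaffold, at 21.7 ± 1.67 (heat-adapted) against 29.2 ± 2.43 (heat-sensitive; SD, n = 3 each), and TP53BP1, which shields ends from resection, at 6.78 ± 0.622 against 10.2 ± 2.91. DNTT is the terminal transferase that in mammals adds untemplated bases at the joins and marks lymphocytes that are recombining. It was at 0.03, 0.03 and 0.02 in the heat-adapted and 0.05, 0 and 0.02 in the heat-sensitive libraries. DNTT was near 0 in both groups, also in the 3 heat-sensitive libraries. Which cells held the RAG2 transcript was not tested.

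Genes that act on already assembled immunoglobulin genes were measured as well. Of the 16 tested genes for gene conversion and mutation, 13 lay lower in the heat-adapted group and 3 higher (median log2 difference -0.32), where 58.3% of all genes tested lay lower. Among the 13, RAD52 reached the minimum mean FPKM of 1 only through its heat-sensitive values (heat-adapted mean 0.873). None of the 16 passed the test, where 0.0949% of all genes did. At an unadjusted p below 0.05 by limma there were 4, against 18% of all genes tested. They included the uracil glycosylase UNG, at 1.94 ± 0.679 in the heat-adapted against 4.12 ± 1.34 in the heat-sensitive group (SD, n = 3 each), and, in the other direction, the repair gene XRCC3, at 20.2 ± 3.88 against 13.8 ± 1.04. Of all genes tested, 7.13% were higher at an unadjusted p below 0.05. With a minimum mean FPKM of 5 the median of this list was -0.0951.

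**Figure D3:**
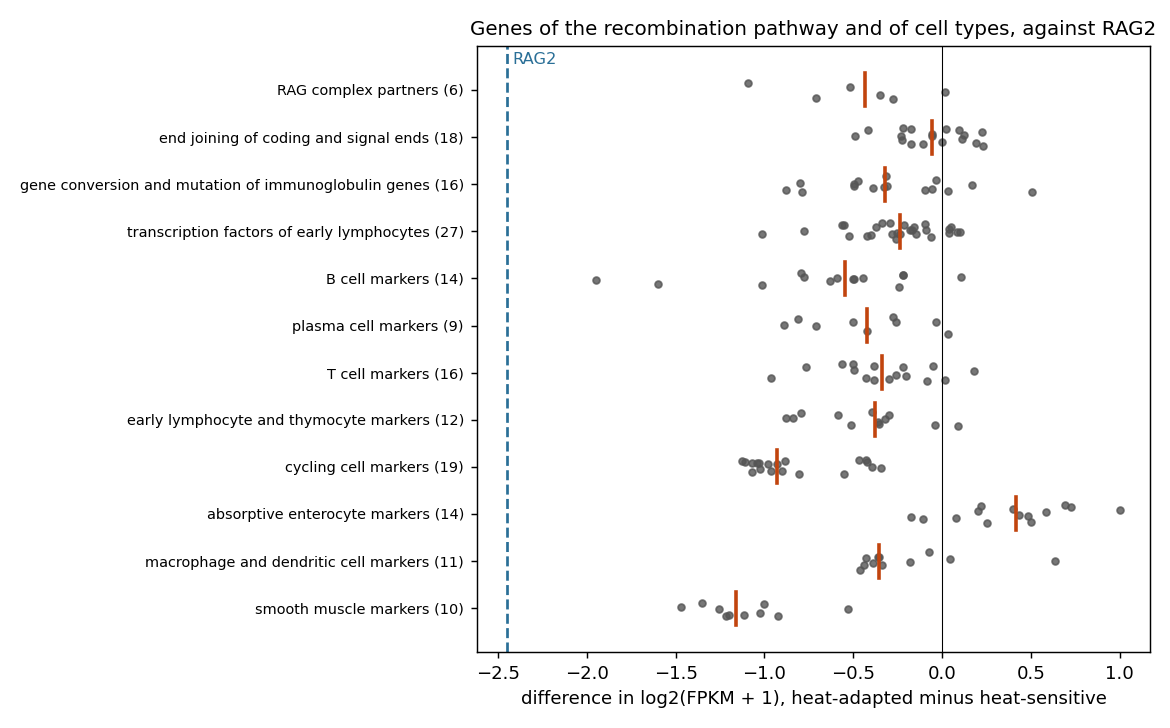
Difference in log2(FPKM + 1), heat-adapted minus heat-sensitive, for each tested gene of 12 lists; grey points are genes, red bars list medians, the number of tested genes is in brackets and the dashed line is RAG2 at -2.45. RAG2 was chosen by this difference, and the lowest listed gene was VPREB3 at -1.95.

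Transcription factors known to act in early lymphocytes were tested as a further list. Of 27 tested, 22 lay lower in the heat-adapted group (median log2 difference -0.24), beside 58.3% of all genes tested. None passed, where 0.0949% of all genes did, and 4 of 27 had an unadjusted p below 0.05 by limma, all lower. That is a somewhat larger share than the 10.9% of all genes tested that were lower at that p. The 4 were the B cell coactivator POU2AF1, the E-protein antagonist ID2, SPI1 and IRF4, with log2 differences of -1.02, -0.40, -0.56 and -0.42. The median was -0.11 without heat-sensitive replicate 1, -0.133 without heat-adapted replicate 1 and -0.125 after rescaling to TPM. FOXO1, which drives RAG transcription in mouse B cell precursors, was at 14.83, 14.89 and 11.98 in the heat-adapted and 14.51, 12.35 and 13.55 in the heat-sensitive libraries. PAX5, the B lineage factor, was at 0.57, 1.99 and 2.11 against 11.62, 1.04 and 1.86, so its high value was that of heat-sensitive replicate 1.

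Markers of the cells that could carry RAG2 were present in both groups. Of 14 B cell markers measured, 13 lay lower in the heat-adapted group (median log2 difference -0.55), beside 58.3% of all genes tested. Among the 13, CXCR5 and TNFRSF13C reached the minimum mean FPKM of 1 only through their heat-sensitive values (heat-adapted means 0.723 and 0.907). None of the 14 passed the test, where 0.0949% of all genes did. Of them 1, POU2AF1, was lower at an unadjusted p below 0.05 by limma. That is a smaller share than the 10.9% of all genes tested that were lower at that p. Their summed FPKM was 167 to 197 in the heat-adapted and 161 to 330.1 in the heat-sensitive libraries, and none was at 0 in any library. LYN was the largest part of each sum, at 71.25 to 100.31 in the heat-adapted and 64.5 to 102.46 in the heat-sensitive libraries. The sums give little weight to low genes such as PAX5 and do not measure B cell number. Of the 14, 12 peaked in heat-sensitive replicate 1, and the median of the list fell in size to -0.218 with that library left out. RAG2 was also highest in that library, and its difference without it was -2.29. The part of B cell number in the RAG2 difference was not tested.

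CD79B, a signalling chain of the B cell receptor, was at 3.17, 7.98 and 6.47 in the heat-adapted and 20.97, 5.09 and 6.8 in the heat-sensitive libraries, so heat-sensitive replicates 2 and 3 lay within the heat-adapted range. On this per-length scale RAG2 was 1.26%, 1.13% and 1.39% of the CD79B level in the heat-adapted and 30.1%, 90.0% and 57.5% in the heat-sensitive libraries. RAG2 was chosen by its group difference, so its share of any gene that differs less must be higher in the heat-sensitive group. Against TRAF6 it was 0.269%, 0.551% and 0.62% in the heat-adapted and 42.2%, 28.8% and 30.5% in the heat-sensitive libraries. The shares therefore carry nothing about B cell number. VPREB3, a marker of chicken B cells, was at 1.53, 3.41 and 3.57 against 55.21, 3.53 and 10.48. Its heat-sensitive values spread 15.6-fold, the widest among the 14 markers, whose median was 2.65-fold. Those of RAG2 spread 1.62-fold, but choosing a gene by its group difference favours even values within a group. In the same list 2 of 14 genes did not overlap between the groups, both lower, where 21.9% of all genes in the fit did not, counting both directions. POU2AF1 was at 3.63, 3.56 and 5.59 in the heat-adapted and 17.3, 6.43 and 7.47 in the heat-sensitive libraries, and the signalling adaptor BLNK at 39.08, 40.05 and 44.32 against 50.92, 48.32 and 44.95, so both were higher in all 3 heat-sensitive libraries. CD79B, BLNK, PAX5 and FOXO1 were named after their values were seen.

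T cell markers were likewise present in both groups. The 17 measured genes summed to 636 to 864 in the heat-adapted and 658 to 1058 in the heat-sensitive libraries, and none was at 0. Of the 16 tested, 14 lay lower in the heat-adapted group (median log2 difference -0.34), beside 58.3% of all genes tested. Among the 14, CD28 reached the minimum mean FPKM of 1 only through its heat-sensitive values (heat-adapted mean 0.93). None of the 16 passed the test, where 0.0949% of all genes did. At an unadjusted p below 0.05 by limma there were 3, all lower. That is a larger share than the 10.9% of all genes tested that were lower at that p. The median was -0.189 without heat-adapted replicate 1, -0.199 without heat-sensitive replicate 1 and -0.219 after rescaling to TPM. The 3 were the inhibitory receptor CTLA4, at 2.92 ± 0.176 against 6.71 ± 1.27 (adjusted p = 0.0755, limma), CD6 and CD4. CD3E, a chain of the T cell receptor complex also named after its values were seen, was at 114, 163 and 138 against 194, 146 and 171. RAG2 was 0.035%, 0.0551% and 0.0651% of the CD3E level in the heat-adapted and 3.26%, 3.14% and 2.29% in the heat-sensitive libraries. That rise too follows from how RAG2 was chosen.

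Among markers of early lymphocytes and thymocytes, 12 were tested. Of these, 11 lay lower in the heat-adapted group (median log2 difference -0.38, and -0.816 with a minimum mean FPKM of 5), beside 58.3% of all genes tested. None passed, where 0.0949% of all genes did. Of the 12, 4 had an unadjusted p below 0.05 by limma, all lower, as had 10.9% of all genes tested. They were LMO2, CD34, the chemokine receptor CXCR4 and the interleukin-7 receptor IL7R, with log2 differences of -0.88, -0.59, -0.84 and -0.79. PTCRA, the surrogate alpha chain of the pre-T cell receptor, was at 3.17, 2.54 and 1.73 in the heat-adapted and 3.91, 3.12 and 3.15 in the heat-sensitive libraries. PTCRA overlapped between the groups.

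Most plasma cell genes and all tested cycling cell genes lay lower in the heat-adapted group. Of 9 plasma cell markers 8 were lower (median -0.42) and none passed, where 0.0949% of all genes did. By limma 3 had an unadjusted p below 0.05, all lower, as had 10.9% of all genes tested. JCHAIN, which joins secreted antibodies, was at 2304, 2147 and 2469 in the heat-adapted and 4278, 3762 and 3336 in the heat-sensitive libraries. All 19 tested cycling cell markers were lower, with a median of -0.93 and log2 differences between -1.13 and -0.34. Of these, 17 had an unadjusted p below 0.05, where 10.9% of all genes tested were lower at that p. None passed, where 0.0949% of all genes did, the smallest adjusted p being 0.0537 by limma. Their summed FPKM was 188 to 274 in the heat-adapted and 401 to 460 in the heat-sensitive libraries. The part of cell division in the RAG2 difference was not tested.

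**Figure D4:**
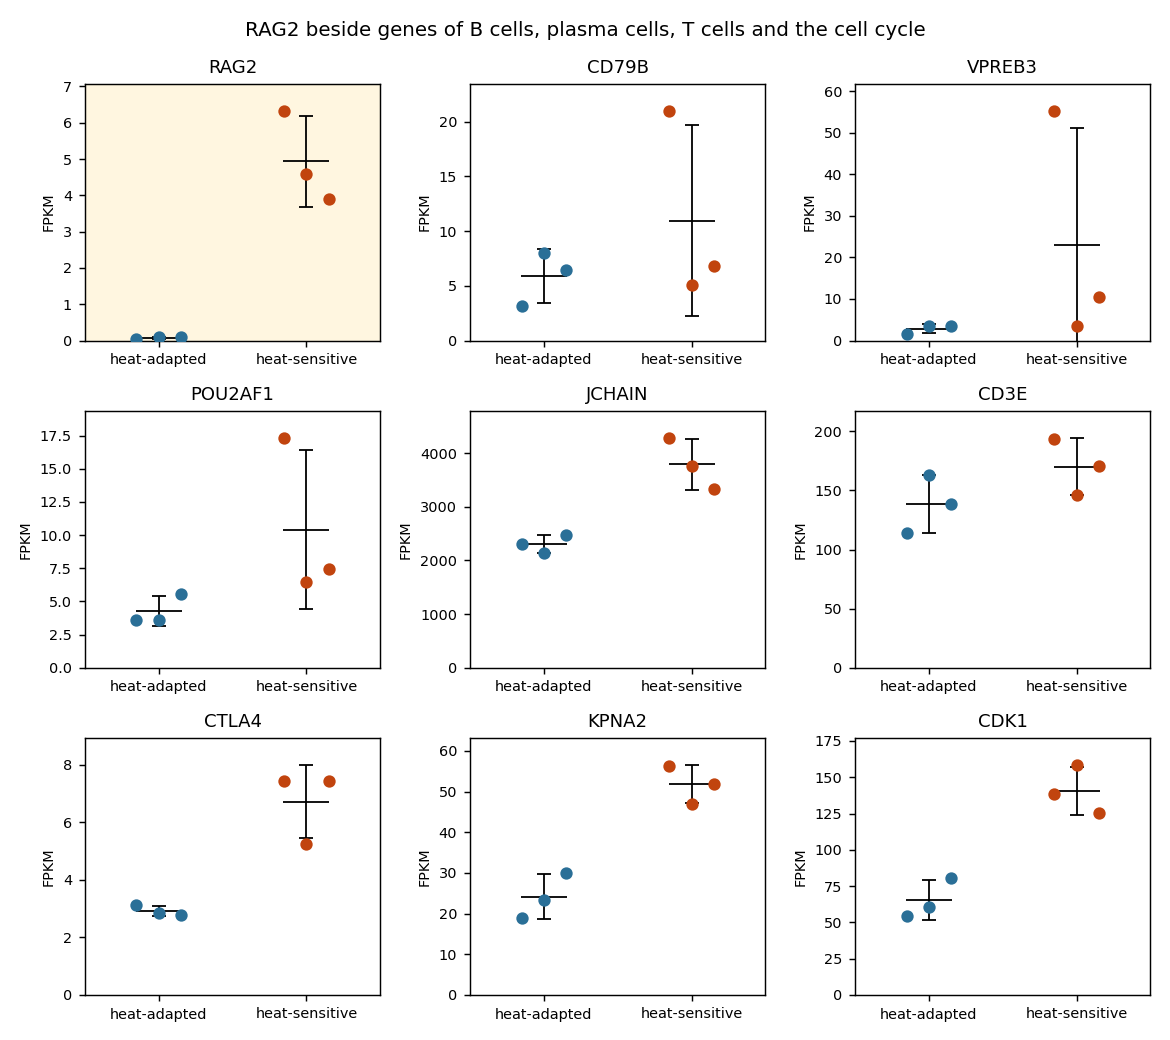
FPKM of RAG2 (shaded) beside B cell (CD79B, VPREB3, POU2AF1), plasma cell (JCHAIN), T cell (CD3E, CTLA4), nuclear import (KPNA2) and cell cycle (CDK1) genes; points are libraries, horizontal lines are means and bars are SD (n = 3), with axes from 0, so that the bar of VPREB3 is cut there. CD79B, VPREB3 and RAG2 were each highest in heat-sensitive replicate 1, at 20.97, 55.21 and 6.32, and POU2AF1 at 17.3; POU2AF1 and RAG2 did not overlap between the groups.

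Of the markers of other cell types, 0 passed in either direction, where 0.0949% of all genes did. The smallest adjusted p by limma was 0.108 for enterocyte, 0.108 for smooth muscle and 0.182 for macrophage and dendritic cell genes. The 14 absorptive enterocyte markers had a median log2 difference of 0.42, which was 0.215 without heat-sensitive replicate 2. Of these, 12 lay higher in the heat-adapted group, 4 at an unadjusted p below 0.05 by limma, against 7.13% of all genes tested. Among the 12, ALPI reached the minimum mean FPKM of 1 only through its heat-adapted values (heat-sensitive mean 0.98). The 10 smooth muscle markers all lay lower, as did 58.3% of all genes tested, at a median of -1.16 and a summed FPKM of 246 to 583 against 618 to 1220. For 7 the unadjusted p was below 0.05 by limma, against 10.9% of all genes tested. The 11 tested macrophage and dendritic cell markers had a median of -0.36, which was -0.216 without heat-adapted replicate 3 and -0.197 with quantile normalization. Their part in the RAG2 difference was not tested. Over all 12 lists, 167 genes were tested and 0 passed an adjusted p of 0.05 by limma, where 0.0949% of all genes did. Of the 167, 53 had an unadjusted p below 0.05 by limma, beside 18% of all genes tested.

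The genes whose pattern was most like that of RAG2 were found by Pearson's r of log2(FPKM + 1) over the 6 libraries. They were LOC428505 (r = 0.994), the splicing factor PLRG1 (0.992), the kinetochore protein NDC80 (0.991), PQLC2L (0.988) and the RNA polymerase II subunit POLR2J (0.988). The 6 libraries fall into 2 groups, so any gene that separates the groups evenly has a high r, and 361 of 11586 genes (3.12%) had an r above 0.9. PLRG1 was at 12.54, 13.13 and 12.67 in the heat-adapted and 16.17, 15.92 and 15.64 in the heat-sensitive libraries, the same order of groups as RAG2 with a far smaller difference. NDC80 was at 2.04, 2.21 and 2.54 against 6.25, 5.19 and 4.75. The 5 names depended on single libraries: leaving out each library in turn kept between 0 and 2 of them.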

How the data were processed

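The data are 6 RNA-seq libraries of jejunal mucosa, 3 per group. The submitters' processing notes name HISAT2 2.0.1, build GRCg6a, HTSeq 0.6.1, cutadapt 1.9.1 and DESeq2, without settings. Per the file headers, the deposited table gives FPKM (the authors rounded it to 2 decimals) and read counts, taken as estimated counts because part of them are not whole. The deposited estimated counts are in another row order than the symbols and were used only for depth and for a search over rows. The authors' FPKM carry no read number, so no counting interval is given. In 19 rows the symbol had become a date, and these were left out.

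Genes averaging an FPKM of 1 or more entered a limma 3.58.1 fit (R 4.3.3) to log2(FPKM + 1) values (trend, robust, no block), with Benjamini-Hochberg adjustment over 11587 genes, 2-sided, threshold 0.05. The design called for edgeR only on counts that carry gene names. The fit was tested on simulated data. Alternatives were the pseudocount, the filter, 3 other scalings, a replicate block and leaving out each library. The members and the 12 gene lists were chosen with earlier results of these data known. The rule named up to 4 genes of smallest p per list, the neighbours, the 5 genes most like RAG2 and any partner or end-joining gene. LOC112531806, LOC112532770, PTCRA and genes so marked in the text were named after their values were seen. Some genes that the rule would name are not reported here. Reference names came from RefSeq's GRCg7b table, in which 13838 symbols matched directly.

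Same-numbered libraries deviated from their group means with correlations of -0.161, 0.11 and -0.191. These gave no sign that the numbers pair the libraries, but with 3 libraries per group they cannot exclude it.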

Additional observations from a re-analysis of the deposited data

How the results depend on the processing

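The log2 difference of RAG2 was between -4.85 and -2.29 under the 12 alternatives that could give it. RAG2 was chosen by this difference and its groups did not overlap, so its sign was not open to change. Dropping the filter or adding the replicate block cannot alter the value at all. It moved by more than the replicate SD only with a pseudocount of 0.1, to -4.85. A minimum mean FPKM of 5 leaves RAG2 out, since its mean is lower. The number of genes called over all genes, 11 in the reported fit, was 17 with a pseudocount of 0.1, 7 with no filter, 7 with a minimum mean FPKM of 5, 38 with TPM, 20 with median-of-ratios scaling and 46 with the replicate block. Leaving out each library gave 6 (heat-adapted replicate 2 out) to 64 (heat-adapted replicate 3 out). Among the listed genes, 0 in the reported fit, the number called was 2 with TPM (CDK1 and PLK1), 1 with median-of-ratios scaling and 1 with quantile normalization (PLK1 in both), 5 with the replicate block, all smooth muscle genes, and 0 to 9 when each library was left out; the 9 were called without heat-adapted replicate 3. No neighbour of RAG2 was called under any of the 13 alternatives run. The end-joining median, -0.06, was 0.0457 with TPM, 0.0105 with median-of-ratios scaling, 0.0240 with quantile normalization and, with single libraries left out, -0.114 to 0.0230; it was above 0 without heat-adapted replicate 1 (0.0227) and without heat-sensitive replicate 1 (0.0230); the cause was not tested. TPM moved the median of all genes from -0.06 to 0.05. Whether the replicate numbers pair the libraries is not known. Every replicate number occurs in both groups, so the block cannot change a log2 difference, only its test. The unchanged value of RAG2 therefore says nothing about pairing. Which of the 5 most alike genes stayed was an alternative added after the data were seen.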
